A study of Mus musculus with 2 samples.

Results

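The insulin-like growth factor (IGF) axis was described through 10 mouse genes: the ligands Igf1 and Igf2, the receptors Igf1r and Igf2r, and the binding proteins Igfbp2, Igfbp3, Igfbp4, Igfbp5, Igfbp6 and Igfbp7. They were chosen by name, and all 10 had entries among the 43346 mouse genes of the gene tables. Adipose tissue came from a male C57BL/6J mouse, an inbred laboratory strain, aged 10 weeks, with no treatment or genetic change named in the labels. Polyadenylated RNA of 1 biosample (biological replicate 1) was sequenced as 2 technical libraries, called library 1 and library 2 here. Library 2 was made in 2015 and is described as falling outside the study's publication. Every SD is therefore the technical spread of n = 2 libraries of 1 biosample, and no condition was compared with another.

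IGF1 and IGF2 are small secreted hormones that signal through the IGF1 receptor, a tyrosine kinase close to the insulin receptor, while the IGF2 receptor takes IGF2 into the cell for breakdown in lysosomes and also carries enzymes tagged with mannose 6-phosphate. Most IGF in body fluids is held by binding proteins, which prolong its life, keep it from the receptor or release it when proteases cut them. In adipose tissue the axis is known for its part in the growth and maturation of preadipocytes, and growth hormone induces Igf1 there as it does in liver.

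The binding proteins are alike at their amino end, and IGFBP7 differs from the others at the carboxy end, where it has an immunoglobulin-like domain in place of a thyroglobulin-like one. The third exon of the leading transcript, which is coding over its whole length, is shown for that reason, read from the GENCODE M21 transcripts (assembly GRCm38, also called mm10). Capitals mark the longest run of bases, 9 long, that was found in this exon in all 5 of Igfbp2 to Igfbp6. Each sequence is written 5′ to 3′ on the strand of its gene.
Igfbp2: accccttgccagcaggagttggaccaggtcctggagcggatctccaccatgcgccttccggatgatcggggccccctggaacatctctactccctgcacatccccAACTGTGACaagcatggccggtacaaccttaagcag
Igfbp3: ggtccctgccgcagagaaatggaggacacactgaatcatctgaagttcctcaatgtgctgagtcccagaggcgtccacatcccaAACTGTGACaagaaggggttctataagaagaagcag
Igfbp4: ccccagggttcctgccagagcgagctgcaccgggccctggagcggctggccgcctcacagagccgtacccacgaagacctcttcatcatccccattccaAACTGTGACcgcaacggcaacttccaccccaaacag
Igfbp5: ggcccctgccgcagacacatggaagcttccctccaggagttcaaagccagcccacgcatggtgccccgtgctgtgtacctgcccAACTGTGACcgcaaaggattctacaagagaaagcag
Igfbp6: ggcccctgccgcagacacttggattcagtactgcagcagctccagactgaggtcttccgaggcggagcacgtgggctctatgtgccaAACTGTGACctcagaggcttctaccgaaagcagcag
Igfbp7: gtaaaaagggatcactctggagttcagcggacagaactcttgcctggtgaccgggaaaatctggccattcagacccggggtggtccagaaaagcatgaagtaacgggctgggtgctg
These exons lie at chr1:72849564-72849704 (Igfbp2, plus strand), chr11:7209459-7209578 (Igfbp3, minus), chr11:99049094-99049228 (Igfbp4, plus), chr1:72863143-72863262 (Igfbp5, minus), chr15:102148102-102148224 (Igfbp6, plus) and chr5:77351913-77352029 (Igfbp7, minus). The run AACTGTGAC, searched on both strands, was not in the Igfbp7 exon. Of 38603 annotated exons between 117 and 141 bases long, 55 held it (0.142%).

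A second set of sequences is shown because Igfbp6 and Igfbp7, which have almost the same base composition, lay on opposite sides of other genes of that composition when the 2 libraries were compared. The first 60 coding bases of exon 1 and of exon 4 are given, with G and C in capitals.
Igfbp6 exon 1: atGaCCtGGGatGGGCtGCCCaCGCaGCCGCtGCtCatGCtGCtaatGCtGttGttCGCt
Igfbp6 exon 4: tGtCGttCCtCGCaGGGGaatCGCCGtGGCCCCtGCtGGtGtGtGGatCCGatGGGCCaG
Igfbp7 exon 1: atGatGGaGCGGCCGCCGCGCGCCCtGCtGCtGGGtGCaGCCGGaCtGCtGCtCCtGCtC
Igfbp7 exon 4: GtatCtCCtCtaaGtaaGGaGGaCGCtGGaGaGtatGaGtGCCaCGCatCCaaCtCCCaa
These stretches are chr15:102144548-102144607 and chr15:102149180-102149239 for Igfbp6 and chr5:77407955-77408014 and chr5:77351295-77351354 for Igfbp7. G and C made up 60% and 66.7% of the bases in Igfbp6 and 73.3% and 51.7% in Igfbp7, so that Igfbp7 was richer in G and C than Igfbp6 at the start of the coding part and poorer at the start of exon 4.

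The libraries held 19954869 and 19256807 expected counts, which are read counts estimated per gene. TPM (a transcript abundance that corrects for length and sums to the same total in each library) was used for levels. Mitochondrial genes and their copies took 51.7% of the TPM in library 1 and 15.9% in library 2, which raises every other TPM in library 2. The log2 ratio of library 2 to library 1 was therefore taken from counts scaled by trimmed means (TMM), with an exact 95% interval that covers counting error only. The ratio was higher for genes whose transcripts hold more G and C (Spearman's rho 0.89 across 12045 genes, which share the same libraries), and for each member the ratio is given beside that of genes of like GC. Fat-cell markers were present, with 8 of 8 reaching 1 TPM in both libraries and a summed level of 6903 and 11330 TPM. Markers of the epididymis, the duct beside the testis, were also present, with 8 of 8 at 1 TPM or more and sums of 42900 and 49200 TPM, and the levels of the members are those of this mixture, in which the part of the epididymis was not tested. In bulk tissue, fewer cells of a type and less RNA per cell cannot be told apart.

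Igfbp7 had the most abundant transcripts of the axis in both libraries. By mean TPM the order was Igfbp7, Igfbp4, Igfbp5, Igf1, Igfbp6, Igfbp3, Igfbp2, Igf1r, Igf2r and Igf2. The 2 libraries' ranges overlapped for every pair of neighbours in this order. By TPM, only Igfbp7 over Igfbp4 and Igf1r over Igf2r stood in the same order in both libraries. By posterior mean TPM, the authors' other estimate, Igf1r was below Igf2r in library 1 and above it in library 2. The counts of all 10 members were whole within 0.005, a sign that no reads were split between them and other genes. Of the 10 members, 9 reached 1 TPM in both libraries, and Igfbp6 did so in library 2 only.

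**Figure D1:**
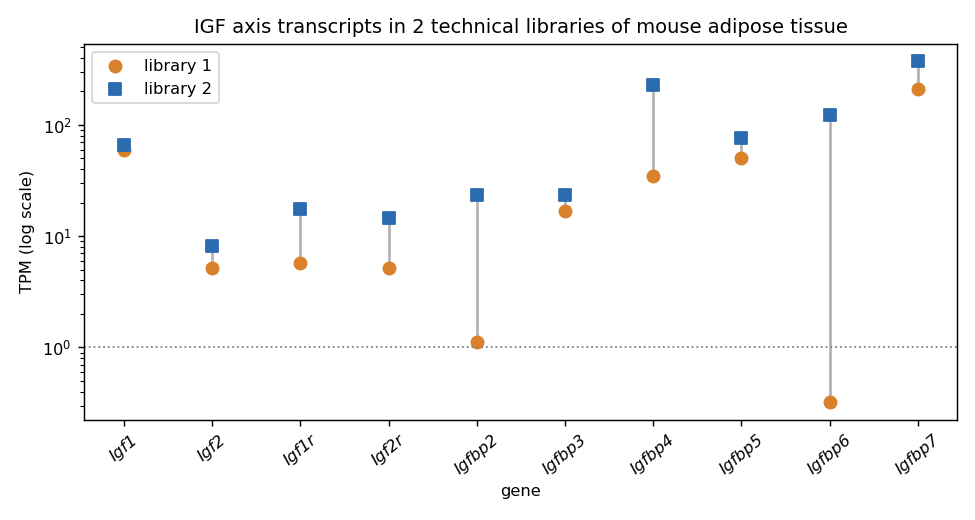
TPM (log axis) of the 10 members in library 1 (circles) and library 2 (squares), with a grey line joining the 2 values of a gene and a dotted line at 1 TPM. All 10 squares lie above their circles, by little for Igf1 (59.03 and 66.5 TPM) and by most for Igfbp6 (0.32 and 123.03 TPM).

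Between the libraries, 3 members were at least 2-fold higher in library 2 by scaled counts (Igfbp2, Igfbp4 and Igfbp6), 1 was at least 2-fold lower (Igf1) and 6 were neither. Of 18261 genes with at least 10 counts over both libraries, 31.8% were 2-fold higher and 18.8% 2-fold lower, so the members' counts were near those of all genes. The median log2 ratio was 0.47 over the 10 members and 0.06 over all genes tested. Scaling by total counts in place of TMM moved every log2 ratio up by 0.41, which turned the split over all genes from 5802 higher and 3435 lower to 7017 and 1393 and put 5 members in the higher group.

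With the trend along GC removed, 2 members were higher (Igf1r, at 1.00, and Igfbp6) and 4 lower (Igf2, Igfbp3, Igfbp4 and Igfbp7), against 12.0% and 9.93% of all genes. With the GC of the leading transcript in place of that of all transcripts, Igf1r (0.94) and Igfbp3 (-0.99) were short of 2-fold and Igf2 stood at -1.16. Both GC values of Igf1r come from M21, where its message is longer than the form counted. The median over the members was -0.38 with the GC of all transcripts. Only Igfbp6 was 2-fold higher both before and after removal, and no member was 2-fold lower both times. All 10 members had a higher TPM in library 2, and 6 did so once the mitochondrial genes and copies were left out of the sum.

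**Figure D2:**
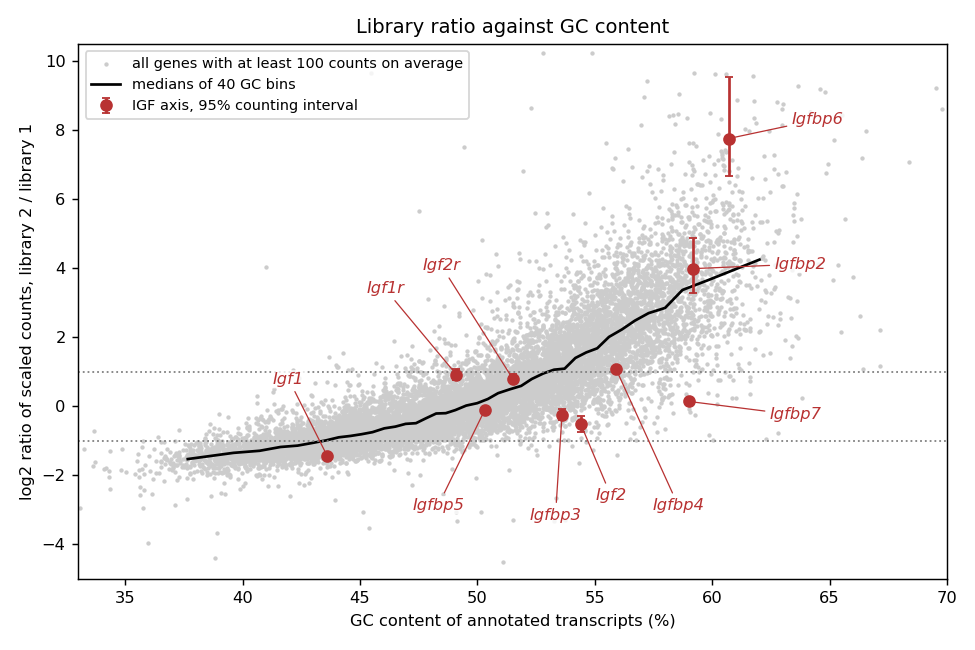
Log2 ratio of TMM-scaled counts, library 2 over library 1, against the GC content of annotated transcripts (percent). Grey points are genes with at least 100 counts on average, the black line joins the medians of 40 GC bins, dotted lines mark 2-fold, and red points with 95% counting intervals are the 10 members. Igfbp6 lies 3.87 above the line and Igfbp7 3.30 below it, at 60.7% and 59.0% GC.

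Igf1, the ligand that growth hormone induces, was the more abundant of the ligands. Its TPM was 59.03 in library 1 and 66.5 in library 2 (mean 62.77 ± 5.282 TPM, SD, n = 2), which ranked 1295 and 1923 among 21474 protein-coding genes. Igf2, an imprinted gene that is high in the fetus and low in most adult rodent tissues, stood at 5.21 and 8.11 TPM (6.66 ± 2.051 TPM). The TPM of Igf1 was thus 11.3 times that of Igf2 in library 1 and 8.2 times in library 2, and the 2 genes' values did not overlap. The Igf1 gene lies at chr10:87858265-87937042 on the plus strand and Igf2 at chr7:142650766-142666816 on the minus strand.

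Counts and TPM of Igf1 moved in opposite directions. Library 1 held 5757 counts of Igf1 and library 2 held 2718, a log2 ratio of -1.44 (95% counting interval -1.5 to -1.37), while the TPM was slightly higher in library 2. Beside them, the deposited mean transcript length of Igf1 went from 5888 bases in library 1 to 3238 bases in library 2. With all counts placed on the longest message, the level became 49.02 TPM and 29.57 TPM. Igf1 transcripts are poor in GC (43.6%), and the 1144 genes within 1 percentage point of that value had a median log2 ratio of -0.97. Igf1 lay above 6.12% of them, and its log2 ratio was -0.46 once the trend with GC was removed, short of 2-fold. With the GC of that longest message alone (38.0%), which is the leading transcript, the log2 ratio was -0.01.

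That mean length is weighted by the deposited share of each transcript, and the shares differed between the libraries. Igf1-202, a message of 7052 bases of which 6311 follow the coding part, took 80.63% of the Igf1 TPM in library 1 and 38.13% in library 2 (59.38% ± 30.05, SD, n = 2). Igf1-206, of 651 bases, took 12.17% and 32.21%, Igf1-205, of 798 bases, took 0% and 17.59%, and Igf1-203 took 4.88% and 7.7%. The short messages rest on few reads: Igf1-206 had 57.0 and 133.88 estimated counts, and Igf1-205 had 0 and 96.1. These counts are the authors' estimates of how reads divide among messages, and a 0 among them is not an observed absence. By posterior mean TPM, the authors' other estimate, Igf1-205 took 0.29% and 16.47%. Igf1-202 is 38.0% G and C, against 51.3% in Igf1-206 and 49.0% in Igf1-205, so the messages with a larger share in library 2 were the richer ones in GC.

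Igf1 messages are usually sorted by their leader exon and by the end of the precursor that they encode. Messages whose coding part starts in the first leader (class 1) took 85.9% of Igf1 TPM in library 1 and 46.8% in library 2, and those that start in the second leader (class 2) took 14.1% and 53.2%. As shares of counts, class 2 messages made up 1.55% and 10.1%, so that class 1 messages held most Igf1 reads in both libraries although class 2 messages led by TPM in library 2. The precursor end known as Eb arises when a 52-base exon at chr10:87915298-87915349 is included, which shifts the reading frame of the end that follows. It is shown whole, with no capitals.
Igf1 52-base exon: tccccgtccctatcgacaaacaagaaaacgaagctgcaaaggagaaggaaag
Messages with this exon (Igf1-203, Igf1-206 and Igf1-208) made up 17.1% of Igf1 TPM in library 1 and 39.9% in library 2, and 2.26% and 8.68% of the counts. Messages without it made up 81.9% and 59.0% of TPM, and the single message that runs on past the exon (Igf1-201) 1.03% and 1.11%. The form without the exon, which gives the Ea precursor, was therefore the main form in both libraries, also by counts (97.4% and 90.6%).

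Igf2 differed by less than 2-fold in counts between the libraries but stood apart from genes of its GC content. Its counts were 320 and 286, a log2 ratio of -0.52 (-0.75 to -0.28). At 54.4% GC it had 1314 genes of like composition, whose median log2 ratio was 1.51, and Igf2 lay above 1.6% of them (21 genes). Its log2 ratio was -2.01 with the trend removed. With the GC of its leading transcript it was -1.16.

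Igf2 has several promoters, and its messages share their coding exons but not their first exon. Igf2-201, from the first exon at chr7:142657388-142657496, took 93.09% of Igf2 TPM in library 1 and 48.72% in library 2 (70.91% ± 31.37). Igf2-202, which starts in the same exon, took 0% and 10.7%. Igf2-205, from the exon at chr7:142658364-142659489, took 6.91% and 4.38%, and Igf2-204, from the exon at chr7:142660932-142661305, took 0% and 6.39%. The first exon shared by Igf2-201 and Igf2-202 thus led in both libraries, with 93.1% and 59.4% of the TPM and 292.08 and 213.16 estimated counts. Igf2-208, a non-coding message of 958 bases that lies within the last exon of Igf2-201, took 0% and 29.82% of TPM on 0 and 25.03 estimated counts. The division of so few reads was uncertain: by posterior mean TPM, Igf2-201 took 68.06% and 38.83%, Igf2-204 8.14% and 5.68%, and Igf2-208 2.65% and 25.45%.

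**Figure D3:**
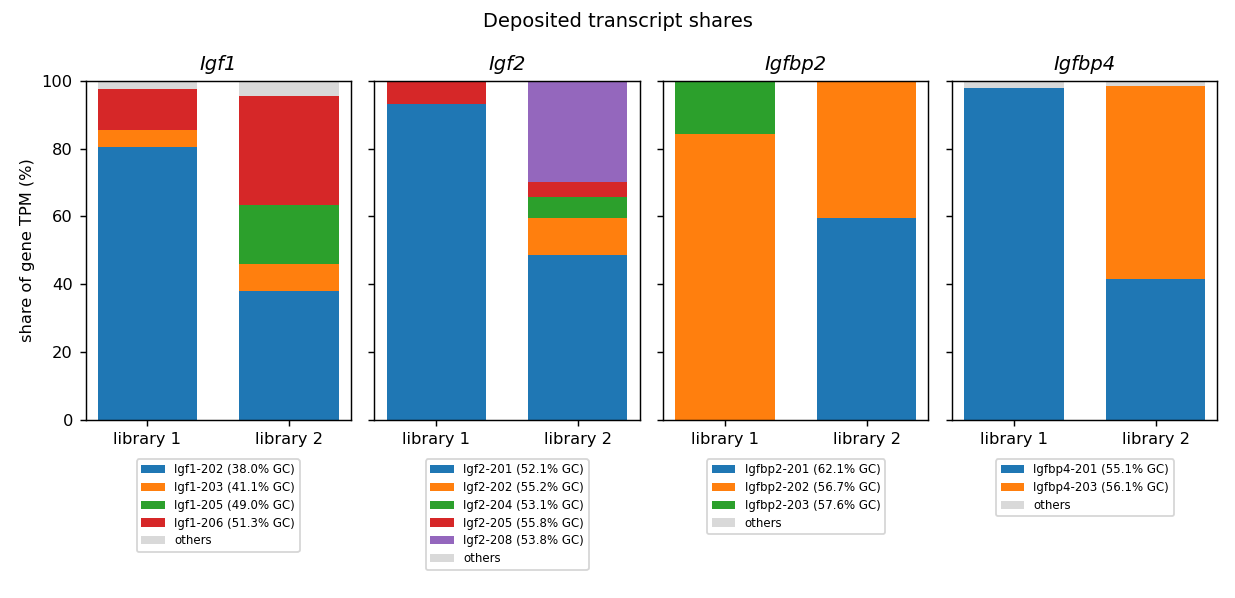
Stacked bars of the share of gene TPM (percent) given to each transcript of Igf1, Igf2, Igfbp2 and Igfbp4 in library 1 and library 2. In each legend the transcript's GC content follows its name, and grey stands for all transcripts under 5% in both libraries. The leading transcript of library 1 held a smaller share in library 2 in all 4 genes.

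Igf1r and Igf2r, the receptors, were lower than Igf1 and close to each other in both libraries. Igf1r, which encodes the tyrosine kinase, had 5.75 TPM in the first and 17.72 TPM in the second library (11.73 ± 8.464 TPM). Igf2r, which encodes the receptor that clears IGF2, stood at 5.16 and 14.7 TPM (9.93 ± 6.746 TPM). By TPM, Igf1r was 1.11 and 1.21 times Igf2r. By posterior mean TPM, Igf1r had 5.46 and 16.62 and Igf2r 6.62 and 15.68, so their order differed between the libraries. Both were higher in library 2, also in counts: 423 and 1021 for Igf1r, a log2 ratio of 0.92 (0.75 to 1.08), and 768 and 1713 for Igf2r, a log2 ratio of 0.80 (0.68 to 0.93). Neither reached a 2-fold difference, and both did when counts were scaled by their totals (log2 ratios of 1.32 and 1.21).

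Igf1r was high in library 2 for the GC content of its M21 annotation, which is longer than the form counted. Genes of like GC (49.1%) had a median log2 ratio of -0.07, and Igf1r lay above 93.1% of 1383 such genes, with a log2 ratio of 1.00 once the trend was removed, or 0.94 with the GC of its message alone, which is short of 2-fold. The authors' tables give Igf1r a single message of 4489 bases, while the M21 annotation gives the same message 11409 bases, of which 7270 follow the coding part. Its GC value belongs to the longer form, and the tables give no place to reads in the added stretch. The 4107 coding bases alone were 54.3% G and C, and the bin with a median GC of 54.17% had a median log2 ratio of 1.4, above that of Igf1r. The place of Igf1r by the GC of the counted form was not tested. Igf2r, at 51.5% GC, was near its composition: the median of 1284 genes was 0.52, and 65.0% of them lay below it. Igf1r and Igf2r each had 1 message at 100% of TPM in both libraries. By posterior mean TPM, the message of Igf2r (Igf2r-201) took 73.94% and 87.92%.

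The receptors that share ligands or cargo with them were more abundant. Insr, the insulin receptor, had 25.55 and 22.68 TPM, which was 4.44 and 1.28 times Igf1r. M6pr, the other mannose 6-phosphate receptor, stood at 85.1 and 112.07 TPM, 16.5 and 7.62 times Igf2r, with a count in library 1 that was not whole and so included shared reads. The order Insr over Igf1r and M6pr over Igf2r was the same in both libraries, and the size of each difference was not. Airn, a non-coding RNA that is read antisense across the first exons of Igf2r and silences its paternal copy, had 125 and 106 counts (11.03 and 9.76 TPM). It overlaps Igf2r over 28354 bases, and no source used here says whether the counting used strand.

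The 6 binding proteins summed to 312.9 TPM in library 1 and 851.7 TPM in library 2. That was 4.87 and 11.4 times the summed TPM of Igf1 and Igf2. Igfbp7 was the largest part of the sum in both libraries, with 66.8% and 44.1%. Igfbp5 gave 16.3% and 9.0%, Igfbp4 11.1% and 27.0%, Igfbp3 5.37% and 2.74%, Igfbp2 0.355% and 2.77%, and Igfbp6 0.102% and 14.4%. The second place therefore went to Igfbp5 in library 1 and to Igfbp4 in library 2.

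Igfbp7, which encodes a secreted matrix protein of vessels and stroma with low affinity for IGF, had 209.08 TPM in library 1 and 375.25 TPM in library 2 (292.2 ± 117.5 TPM). It ranked 297 and 314 among 21474 protein-coding genes. Its counts, 3336 and 4703, gave a log2 ratio of 0.14 (0.08 to 0.21). With the mitochondrial genes and copies left out of the TPM sum, its levels were 432.9 and 446.0 TPM, so that the libraries differed by little on that scale. At 59.0% GC, however, 614 genes of like composition had a median log2 ratio of 3.43, and Igfbp7 lay above 6 of them (0.977%). The trend-removed log2 ratio was -3.30, the lowest of the 10 members.

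Igfbp6, which encodes a binding protein with a preference for IGF2, was at the other extreme. It had 5 counts (0.32 TPM) in library 1 and 1528 counts (123.03 TPM) in library 2 (61.67 ± 86.77 TPM). The log2 ratio was 7.76 (6.68 to 9.53), or 217.4-fold. Genes of like GC (60.7%) had a median of 3.98, and Igfbp6 lay above 305 of 314 of them (97.1%), with 3.87 left after removal of the trend. Igfbp6 ranked 14381 in library 1 and 1013 in library 2, so its place in the tissue depended on the library read.

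Igfbp6 and Igfbp7 differed in how GC was laid out along the message. Exon 1 of Igfbp7 was 74.1% G and C and its other exons 46.9%. The same values in Igfbp6 were 65.0% and 56.9%. The GC-poorest 200-base window was 34.0% in Igfbp7, at the 3′ end, against a median of 47.0% in genes of like GC, and 52.5% in Igfbp6 against a median of 48.0%. Across the genes of like GC, the ratio and the GC-poorest window had a Spearman's rho of 0.57 around Igfbp7 (611 genes) and 0.56 around Igfbp6 (311 genes), as a description across genes of the same 2 libraries. Over the other members the window and the ratio did not always go together. Igf2 (23.0%, against a median of 41.0%) and Igfbp3 (31.5% against 40%) had poor windows and low ratios for their GC. Igf1r had the poorest window of all members (19% against 32.5%), yet lay above most genes of like GC. That window was read from the 11409-base M21 message, and whether it lies in the 4489 bases counted was not tested. Igf2r also had a poor window (27.5% against 36.5%) and lay above most genes of like GC. Igfbp4 had a window of 45% against 43.5% and lay below most of them. The values were 24.5% against 27.5% in Igf1, 47.0% against 47.5% in Igfbp2 and 28.5% against 34.8% in Igfbp5. The part of this layout in the result was not tested.

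**Figure D4:**
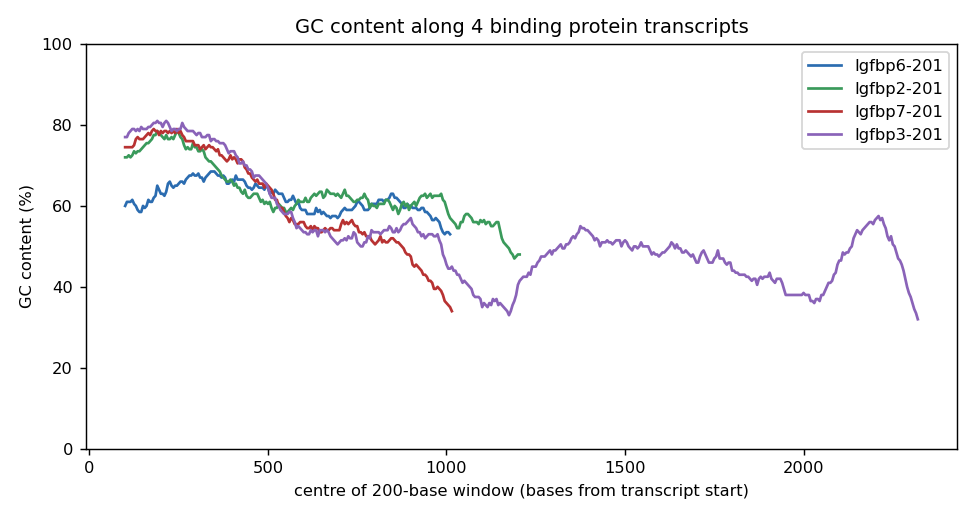
GC content (percent) in 200-base windows along the leading transcripts of Igfbp6, Igfbp2, Igfbp7 and Igfbp3, plotted at the window's centre in bases from the transcript start. Igfbp7 and Igfbp3 reach 79.0% and 81.0% near the start and go down to 34.0% and 32.0% at the end, while the lowest plotted windows of Igfbp6 and Igfbp2 are 53.0% and 47.0%.

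Igfbp2, which encodes a binding protein secreted by preadipocytes among other cells, was also low in library 1. It had 15 counts (1.11 TPM) in library 1 and 314 counts (23.58 TPM) in library 2 (12.34 ± 15.89 TPM), a log2 ratio of 3.99 (3.29 to 4.89) or 15.87-fold. Genes of like GC (59.2%) had a median of 3.51, and 64.3% of 574 such genes lay below Igfbp2, so it stood near the middle for its composition. Igfbp2-201, the full-length message whose first exon is 71.9% G and C, had 0% of the TPM in library 1 and 59.56% in library 2, on 0 and 211.04 estimated counts. Igfbp2-202, which starts in another exon of 53.6% GC, had 84.23% and 40.44%, and Igfbp2-203, a retained intron, 15.77% and 0%. With 15 counts in library 1 the division was uncertain there, and by posterior mean TPM Igfbp2-201 took 12.38% and 59.53%.

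Igfbp4, which encodes a binding protein that holds IGF back from the receptor until the protease PAPP-A cuts it, was the second gene of the axis by mean. It had 34.65 TPM in library 1 and 229.86 TPM in library 2 (132.3 ± 138.0 TPM). Its counts, 2119 and 5740, gave a log2 ratio of 1.08 (1.01 to 1.16), or 2.119-fold, while its TPM was 6.634-fold higher in library 2. The transcript shares and the mitochondrial share of TPM differed beside these folds. Igfbp4-201, the protein-coding message of 3831 bases, took 97.97% of the TPM in library 1 and 41.63% in library 2 (69.8% ± 39.84), although its estimated counts went from 2115.81 to 4671.62.

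The rest of the Igfbp4 signal in library 2 was assigned to a message with no coding part. Igfbp4-203, of 785 bases, starts in an exon of 28 bases at chr11:99043597-99043624. Its later exons lie within those of Igfbp4-201, and its last exon ends at chr11:99051920, before that of Igfbp4-201 (chr11:99054392). Only the 28-base exon lies outside Igfbp4-201, and the division of reads between the 2 messages is an estimate. Igfbp4-203 took 0% and 56.97% of TPM on 0 and 1053.15 estimated counts. By posterior mean TPM it took 0.43% and 56.02%, and it held 18.3% of the gene's counts in library 2. With all counts on the length of Igfbp4-201 the levels were 33.99 and 117.6 TPM. At 55.9% GC the median of 1169 like genes was 2.06, and 18.8% of them lay below Igfbp4. Its log2 ratio of 1.08 became -1.03 with the trend removed, so it was higher in library 2 in scaled counts and lower than genes of its composition.

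Igfbp5 and Igfbp3, which carry IGF in the circulation together with the acid-labile subunit, were, with Igfbp7, the binding proteins whose counts differed least. Igfbp5 had 5073 and 5964 counts, a log2 ratio of -0.12 (-0.17 to -0.07), and 50.96 and 76.64 TPM (63.8 ± 18.16 TPM). Igfbp3 had 641 and 690 counts, a log2 ratio of -0.25 (-0.4 to -0.09), and 16.82 and 23.32 TPM (20.07 ± 4.596 TPM). Scaling by total counts turned these log2 ratios to 0.28 for Igfbp5 and 0.16 for Igfbp3. Without the mitochondrial genes and copies, both were lower in library 2, at 105.5 and 91.1 TPM for Igfbp5 and 34.82 and 27.72 TPM for Igfbp3. Igfbp5 was near genes of like GC (50.3%), whose median was 0.19. Igfbp3 was not: at 53.6% GC the median was 1.20 and 4.2% of 1310 genes lay below it. Each had a single leading message, Igfbp5-201 with 100% and 99.55% of TPM and Igfbp3-201 with 99.21% and 96.3%.

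Igfbp2 and Igfbp5 stand tail to tail on chromosome 1, 5457 bases apart, and had log2 ratios of 3.99 and -0.12. Igfbp3 is 3539 bases from Igfbp1, a binding protein of liver that had 0.61 and 1.5 TPM here. Antisense partners held few reads: Igf1os, over the start of Igf1, had 20 and 18 counts, and Igf2os had 1 and 3. The imprinted neighbour of Igf2, the non-coding RNA H19, stood at 1.21 TPM in both libraries. Igfbp7 shares 85 bases with the end of Polr2b on the other strand, which had 24.91 and 37.79 TPM. In the M21 annotation Igf2 also shares 16048 bases with Gm49394 on the same strand, which has no entry in the gene tables used here.

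Outside the members, 108 genes of 9 pathway lists were matched, of which 98 passed the count limit. At least 2-fold higher in library 2 were 39 and lower 14, with a median log2 ratio of 0.29, where all genes tested gave 31.8% and 18.8%. With the GC trend removed 11 were higher and 10 lower, where all genes gave 12.0% and 9.93%. From each list, genes among the 3 most abundant by mean TPM are given, and those named for their role or position.

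Among 15 other ligands, carriers and proteins with an IGFBP domain, 11 were tested, 4 were higher and 0 lower, and 1 and 4 with the GC trend removed. Ccn2, a matrix protein also called CTGF, had 30.41 and 46.64 TPM, its relative Ccn1 9.88 and 36.02 TPM, and Insl6, a relaxin-like peptide, 14.03 and 22.11 TPM. Ins2, an insulin gene, had 0 and 2 counts, where a count of 0 allows up to 3. Igfals, chosen after its values were seen, encodes the acid-labile subunit and had 1 and 260 counts (0.03 and 10.08 TPM).

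Among 18 proteases that cut binding proteins and their inhibitors, 17 were tested, 7 were higher and 3 lower, and 1 and 0 with the GC trend removed. Ctsd, the lysosomal cathepsin D, had 116.93 and 657.16 TPM, Timp3, a metalloprotease inhibitor, 115.76 and 93.3 TPM, and Htra1, a serine protease, 22.1 and 99.04 TPM. Pappa, which encodes the protease of IGFBP4 and was chosen after its values were seen, had 95 and 60 counts (0.51 and 0.41 TPM), so its message was far below that of its substrate in both libraries.

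Of 15 genes next to the receptor, all tested, 5 were higher and 1 lower, and 2 and 1 with the GC trend removed. Rack1, a scaffold of the ribosome that also binds the IGF1 receptor, had 72.34 and 691.8 TPM. The adaptors Shc1 and Grb2 had 22.84 and 63.75 TPM and 30.26 and 45.9 TPM, and Irs1, the docking protein of both the insulin and the IGF1 receptor, 8.05 and 7.68 TPM. Irs2, chosen after its values were seen, had 4 and 697 counts (0.06 and 13.56 TPM).

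Of 19 genes of the PI3K, AKT and FOXO branch, 6 were higher and 4 lower, and 1 and 2 with the GC trend removed. Akt2, the kinase of insulin-driven glucose uptake, had 29.81 and 103.44 TPM, with counts that were not whole and so shared reads with other genes. Pik3r1, the main regulatory subunit of PI3K, had 72.22 and 50.83 TPM. Of 10 genes of the RAS and MAPK branch, 4 were higher and 2 lower, and 2 and 0 with the GC trend removed. Mapk3, a kinase at the end of this branch, had 18.51 and 76.76 TPM, and Map2k2, the kinase that activates it, 1.63 and 80.78 TPM.

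Of 9 genes of a growth hormone list, which includes Socs1, Socs2, Socs3, Cish and Prlr, 5 were higher and 4 lower, and 0 and 1 with the GC trend removed. Ghr, the growth hormone receptor, was far more abundant than Igf1, at 520.54 and 319.7 TPM, and its log2 ratio of counts was -1.43, beside -1.44 for Igf1. Both genes are poor in GC (44.7% for Ghr and 43.6% for Igf1), and with the GC trend removed the log2 ratios were -0.58 and -0.46. Jak2, the kinase bound to the receptor, had 33.29 and 22.22 TPM, and Stat5a, which it activates, 4.1 and 26.38 TPM with shared reads in library 2.

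Of 8 genes of the mannose 6-phosphate pathway, which makes the tag read by Igf2r and moves the receptor, 6 were higher and 0 lower, and 2 and 0 with the GC trend removed. Beside M6pr, the adaptor Gga2 had 14.41 and 65.56 TPM and Gnptab, which builds the tag, 28.13 and 17.41 TPM. The 3 IGF2 mRNA-binding proteins were low: Igf2bp2 had 2.97 and 2.72 TPM, Igf2bp3 0.6 and 0.75 TPM and Igf2bp1 0.01 and 0.39 TPM, and of 2 tested 0 were 2-fold higher or lower, with or without the GC trend. Among 12 neighbouring and imprinted transcripts, 7 were tested, 2 were higher and 0 lower, and 2 and 1 with the GC trend removed. Tnp1, a spermatid gene near Igfbp5, had 18.23 and 179.88 TPM, and Slc22a3, an organic cation transporter gene near Igf2r, 11.13 and 14.82 TPM.

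Markers of cell types that are known to express members were present in the mixture. Stromal progenitor markers, cells known for Igf1 and Igfbp4, summed to 1445 and 1382 TPM, and endothelial markers, cells known for Igfbp7 and Igfbp3, to 123.6 and 332.9 TPM. Smooth muscle and pericyte markers summed to 269.3 and 758.8 TPM, macrophage markers to 277.9 and 837.7 TPM, and mesothelium markers to 93.71 and 670.0 TPM. In each of these lists all 8 genes reached 1 TPM in both libraries, except 7 of 8 for smooth muscle and pericytes. The 8 hepatocyte markers summed to 927.1 and 2546 TPM, and 4 of them reached that level in both libraries. Most of the sum was Cyp2e1, at 875.33 and 970.44 TPM, and Hp, at 43.7 and 1561.36 TPM, while Alb, which encodes albumin, had 2.05 and 3.3 TPM. Most of the mesothelium sum in library 2 was the keratin genes Krt18, Krt8 and Krt19, at 237.8, 180.27 and 127.71 TPM. In library 1 they had 16.97, 9.65 and 5.58 TPM, while Wt1 of the same list had 9.74 and 8.84 TPM in the 2 libraries. Whether the keratin RNA came from mesothelium was not tested. Which of these cells the IGF transcripts came from was not tested.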

How the data were processed

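Extraction used a lipid tissue RNA kit, and a size range of 350 to 450 is given without a unit, per the labels. The tables were made on mm10 with annotation M4, as a deposited note states. The tools for alignment and quantification, and the use of strand, are not given in the sources at hand. The authors deposited expected counts, TPM and FPKM per gene and transcript, per the file headers. Bounds of the TPM intervals are a signal-like level on the TPM scale, and the posterior SD of the count is a score, both as deposited. Transcript shares are each transcript's percent of its gene's TPM, as deposited.

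Expected counts were rounded, and 0.5 was added to each for log2 ratios, which used TMM library sizes. No p-value was computed, since 1 library on each side leaves no residual degrees of freedom. A call needed a 2-fold ratio among genes with at least 10 counts over both libraries. Intervals are 95% exact Clopper-Pearson intervals. No molecular identifiers are named in the labels, and reads without them are not independent molecules, so intervals and limits cover counting error only. A count of 0 allows up to 3 counts. The GC trend was the median ratio of 40 bins with equal numbers of genes, interpolated, and genes of like GC lay within 1 percentage point and had at least 100 counts on average. GC content, exons and sequences came from GENCODE M21 (GRCm38), and 42462 gene identifiers and 37 of 38 member transcripts matched. A further 26248 entries with bare numbers and 97 spike-in names held 0 and 2 counts and were left out. Ratio, interval and GC removal were tested on simulated data that held counting error only and a straight GC trend. Real genes of like GC spread more widely, so the simulation does not show how the removal works on these data.

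The members and the lists were chosen with earlier results of these data known. All members were described, with their transcripts of at least 5% of TPM. The 3 genes with the highest mean TPM of each pathway list were named, and Insr, Irs1, Ghr, H19, Igf1os, Igf2os, Airn and Ins2 in any case. Some genes that this rule names are not reported here. Cell type lists were those of adipocytes, stromal progenitors, endothelium, smooth muscle and pericytes, macrophages, mesothelium, epididymis and hepatocytes. Alternatives covered scaling, pseudocount, filter, fold, posterior means, FPKM, detection limit, GC removal and single libraries. Placing all counts on a member's leading transcript was added after the data were seen. Software was edgeR 4.0.16 and DESeq2 1.42.0 under R 4.3.3, and scipy 1.17.1, pandas 2.3.3, matplotlib 3.10.9 and numpy 2.4.6 under Python 3.11.15.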

Additional observations from a re-analysis of the deposited data

How the results depend on the processing

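No paired analysis was possible because the labels hold a single group. With the GC trend removed, the genes 2-fold higher went from 5802 to 2175 and those lower from 3435 to 1801, and the members lower from 1 to 4. The log2 ratio turned from 1.08 to -1.03 for Igfbp4 and from 0.14 to -3.30 for Igfbp7. With the GC of the leading transcript the values were -1.03 and -3.28, and -0.15 for Igfbp2 in place of 3.99. Total counts gave 1393 genes lower and 5 members higher (main 3). A 1.5-fold limit gave 5884 genes lower and 5 members higher, and a 4-fold limit gave 3481 genes higher, 324 lower and 0 members lower. Without a filter on low counts 5202 genes were lower. The median TPM of the members was 40.87 over both libraries, and 11.29 to 45.04 when each library was left out in turn. The members at 1 TPM or more numbered 9 to 10 then. The median leading share, taken over Igf1, Igf2, Igfbp2 and Igfbp4 only, was 41.03% to 88.66% (66.07% over both). For Igfbp2 this was the message that starts in another exon, not the full-length message used for its GC. In the other members the leading message held at least 96.3% of TPM in both libraries by the deposited share. By posterior mean TPM, Igf2r-201 held 73.94% and 87.92%. DESeq2 size factors moved every log2 ratio by 0.03. Except where a change comes from the construction of the alternative, the cause was not tested. Of the members, Igfbp6 and Igfbp2 rest on 5 and 15 counts in library 1, so their ratios are the least precise.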
